A study of Homo sapiens with 6 samples.

Results

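Among the peaks of RNA crosslinked to 2 heat shock proteins, a minus-strand peak of about 80 bp in IGF2R, one in LINGO1 and another between genes on chromosome 12 held the 3 highest scores in 1 of the 2 lists of each protein. These 3 loci were chosen by position, with their high scores already known, and every other peak lying in IGF2R or LINGO1 was added. This gave 22 peaks of the 9974 in the 4 lists, of which 12 were the minus-strand peaks of the 3 loci, 1 per locus and list. By list there were 6 of 2744 peaks in HSPA1A replicate 1, 6 of 2059 in HSPA1A replicate 2, 7 of 3131 in HSPA8 replicate 1 and 3 of 2040 in HSPA8 replicate 2. Scores and ranks of the minus-strand peaks chose the loci, so they are given as descriptions with no test.

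The cells were HEK293 Flp-In T-Rex, an established human embryonic kidney line carrying a site for inducible transgenes. In all groups, 1 µg/ml tetracycline switched on a 3xFLAG-HBH tagged bait, and ultraviolet light joined RNA to protein before FLASH-seq, which sequences the RNA fragments left on the purified bait. HSPA1A (the stress-inducible HSP70) and HSPA8 (the constitutive HSC70) each have 2 biological replicates with a peak list of their own. As the 2 libraries of the remaining bait, GFP, were not analysed here, scores and peaks have no control background. Both baits were tetracycline-induced transgenes, and the labels name no number of clones.

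IGF2R encodes the cation-independent mannose 6-phosphate receptor, which carries newly made lysosomal enzymes from the Golgi to endosomes and takes up and degrades insulin-like growth factor 2. LINGO1 encodes a membrane protein with leucine-rich repeats that forms part of the Nogo receptor complex and limits myelination and axon growth. LOC105370906 is a long non-coding RNA gene with no role given here.

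On GRCh38, IGF2R lies on the plus strand of chromosome 6 from 159969082 to 160111504 (142 kb). LINGO1 lies on the minus strand of chromosome 15 from 77613027 to 77820900 (208 kb). LOC105370906 runs the other way, on the plus strand from 77568859 to 77630461, and shares 17.4 kb with the 3′ part of LINGO1. The LINGO1 locus falls in that shared stretch. No annotated gene covers the chromosome 12 locus. Its nearest annotated neighbours are the pseudogenes RPL21P18, 19.9 kb below, and RNA5SP362, a pseudogene of 5S ribosomal RNA, 8.54 kb above. The closest protein-coding genes there are HMGA2, a chromatin architecture protein 91.3 kb away, and LLPH, 58.9 kb away. Whether the loci are exonic or intronic was not analysed here.

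The loci were chosen by these positions, so their edges and widths are a description. The 3 minus-strand peaks kept their edges to within 1 bp in all 4 lists. At IGF2R the peak ran from 160100726 to 160100805 in HSPA1A replicate 1, from 160100727 to 160100805 in HSPA8 replicate 1, and from 160100727 to 160100806 in both lists numbered 2. At LINGO1 it ran from 77618530 to 77618606 in HSPA1A replicate 1 and to 77618607 in the other 3 lists. At chromosome 12 it ran from 66057596 to 66057679 in every list.

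The IGF2R peak was 80 ± 0 bp wide for HSPA1A and 79.5 ± 0.707 bp for HSPA8 (SD, n = 2 each). The LINGO1 peak was 77.5 ± 0.707 bp for HSPA1A and 78 ± 0 bp for HSPA8 (SD, n = 2 each), and the chromosome 12 peak was 84 bp in all lists.

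Inside each peak the authors' files mark a narrower interval, whose meaning is not stated. At the 3 loci it was 74 or 75 bp in all 12 minus-strand peaks. Over all peaks, an inner interval of 74 or 75 bp was found in 4.26% (replicate 1) and 1.17% (replicate 2) for HSPA1A, and in 9.39% and 1.72% for HSPA8. The median inner interval of a list lay between 38 and 49 bp. By outer width the peaks were less unusual: between 9.52% and 28.9% of the peaks of a list were wider.

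The score of a peak is a whole number given by the authors with no stated meaning, and is used here to set peaks of one list against each other. Scores of different lists are set side by side without a comparison. At IGF2R the minus-strand score was 1824 in replicate 1 and 4424 in replicate 2 of HSPA1A, and 991 and 2133 in replicates 1 and 2 of HSPA8. These scores held ranks 59, 2, 281 and 2 of their lists, where rank 1 is the highest score. At LINGO1 the scores were 1311, 3137, 768 and 1536 in the same order, with ranks 113, 3, 306 and 3. At chromosome 12 they were 2494, 6560, 1330 and 3014, with ranks 31, 1, 249 and 1. In both lists numbered 2 the 3 loci therefore took the first 3 places, in the order chromosome 12, IGF2R, LINGO1. The top 1% of a list, which in whole peaks was 0.984% and 1.02% of all peaks for HSPA1A and 0.99% and 0.98% for HSPA8, held all 3 loci in the lists numbered 2 and none of them in the lists numbered 1.

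**Figure D1:**
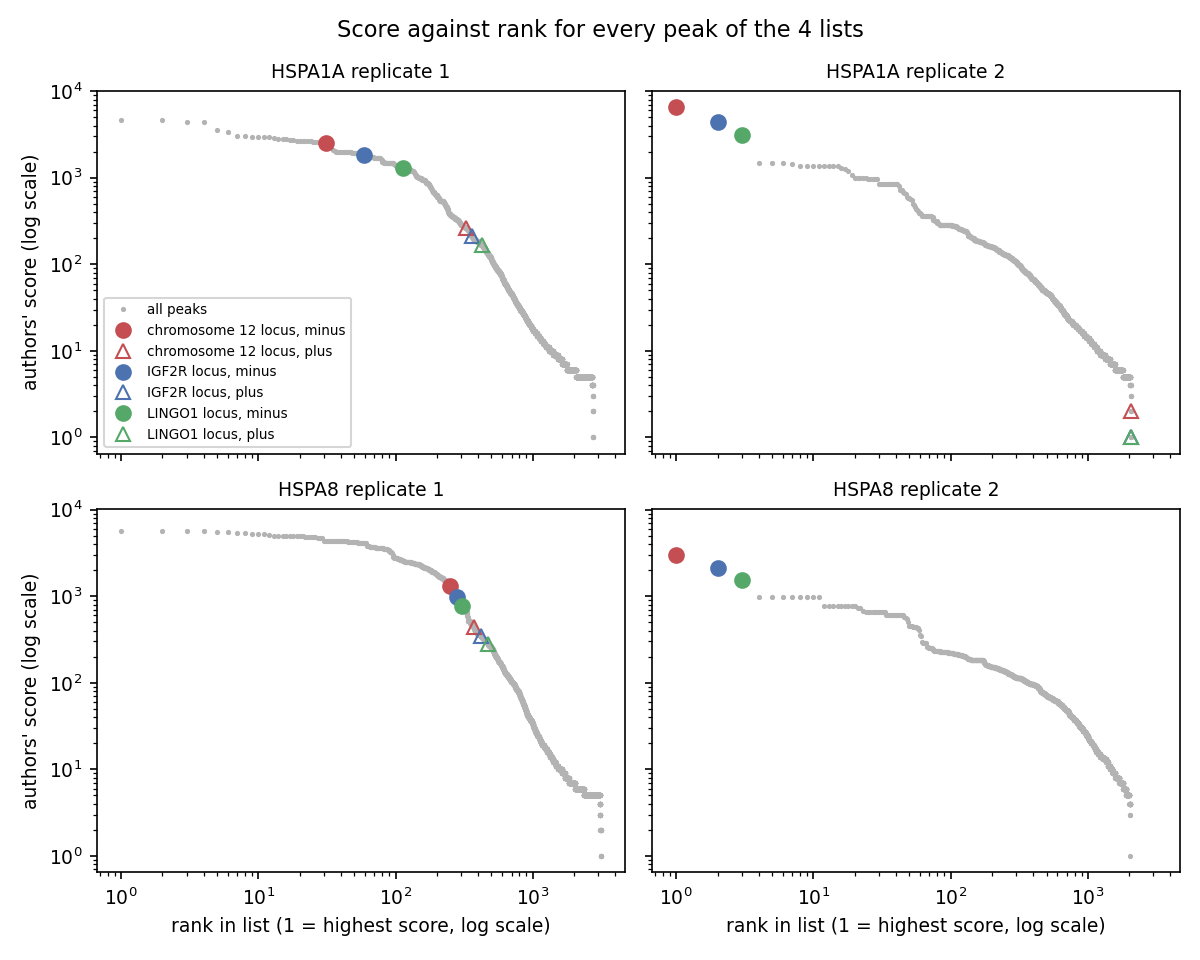
Authors' score (y axis, log scale) against rank in the list (x axis, log scale) for every peak above 0 in each of the 4 lists, in grey, with the minus-strand peaks of the 3 loci as filled circles and their plus-strand partners as open triangles. The circles hold ranks 1 to 3 in both lists numbered 2 and lie between rank 31 and rank 306 in the lists numbered 1.

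In HSPA1A replicate 2 the lowest of the 3, LINGO1 at 3137, was 2.11 times the next score of the list, 1486 in 18S ribosomal RNA (RNA18SN1). In HSPA8 replicate 2 the LINGO1 score of 1536 was 1.57 times the next, 977, also in RNA18SN1. The lists numbered 1 had other peaks above the loci. In HSPA1A replicate 1, 110 other peaks scored above LINGO1, of which 86 lay in ribosomal DNA of chromosome 21 or on unplaced scaffolds and 20 on other abundant RNA genes. In HSPA8 replicate 1, 303 other peaks did, of which 269 lay in those places and 25 on other abundant RNA genes. This left 4 and 9 peaks, which included ones in SLCO5A1, an organic anion transporter, and PDE3A, a phosphodiesterase (both named after their values were seen). In both lists they also included peaks in RNU1-27P and RNU1-28P, pseudogenes of U1 small nuclear RNA. The abundant class leaves pseudogenes out.

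Set against protein-coding genes alone, with peaks on abundant RNA genes left out, both genes were near the top of every list. Each gene was taken by its best peak on either strand, and the IGF2R peak ranked here was antisense to IGF2R in all 4 lists. On the strand of IGF2R the best score was 212 in HSPA1A replicate 1, 1 in HSPA1A replicate 2 and 349 in HSPA8 replicate 1. HSPA8 replicate 2 had no peak on that strand. By its best peak IGF2R ranked 2 of 733 coding genes in HSPA1A replicate 1, 1 of 424 in HSPA1A replicate 2, 4 of 885 in HSPA8 replicate 1 and 1 of 216 in HSPA8 replicate 2. LINGO1 ranked 4, 2, 8 and 2. SLCO5A1, which held rank 1 in both lists numbered 1, held rank 11 in both lists numbered 2. These lists differ in length, so the ranks stand side by side without a comparison.

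The 3 loci kept nearly the same proportions to each other in every list. The LINGO1 score divided by the IGF2R score of the same list was 0.719 and 0.709 in replicates 1 and 2 of HSPA1A, and 0.775 and 0.720 in those of HSPA8, a mean of 0.731 ± 0.0299 (SD, n = 4 lists). The chromosome 12 score divided by the IGF2R score was 1.37, 1.48, 1.34 and 1.41 in the same order, a mean of 1.40 ± 0.0618 (SD, n = 4 lists). The baits overlapped in the chromosome 12 ratio. In the LINGO1 ratio both HSPA8 lists lay above both HSPA1A lists, though the nearest values, 0.720 and 0.719, were closer than the lists of either bait were to each other. The chromosome 12 peak was the highest and LINGO1 the lowest of the 3 in each list.

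These proportions were set beside those of 1048 regions with a same-strand peak in all 4 lists, each starting from a peak of HSPA1A replicate 2. For each region, the log2 ratio of its score to the IGF2R score was taken within each list, and the range over the 4 lists was recorded. That range was 0.13 for LINGO1 and 0.14 for chromosome 12. Over the 1045 regions outside the 3 loci the median range was 4.72 and the smallest was 0.17. None of the 1045 had a range as small as that of either locus. Their median score was far below the IGF2R score in every list, and the comparison was not matched for score. The smallest step of a whole-number score is larger in log2 where the score is low. Low scores did not always give a wide range, as the low-scoring ELAVL2 peak described below had one of 0.20. Every range was taken against IGF2R alone. The median region fell against IGF2R from the lists numbered 1 to those numbered 2, as given below, and that shift enters the ranges. How steady the other regions were to each other was not measured. The range therefore cannot show how unusual the proportions of the 3 loci are. Regions of one list share its depth and many are repeated copies, and the measure uses the scores that chose the loci, so no test was made.

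The median of the 1045 regions was 10.5% of the IGF2R score in HSPA1A replicate 1 and 17.3% in HSPA8 replicate 1, but 0.882% and 1.5% in the lists numbered 2. The number of these regions above the IGF2R score was 93 and 257 in the lists numbered 1 and 0 in each list numbered 2. The larger shift thus ran between the replicate numbers and not between the baits. The labels call the replicates biological. Beyond that and an adapter tag, they do not say what the replicate number stands for, and its part in these ranks was not tested.

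**Figure D2:**
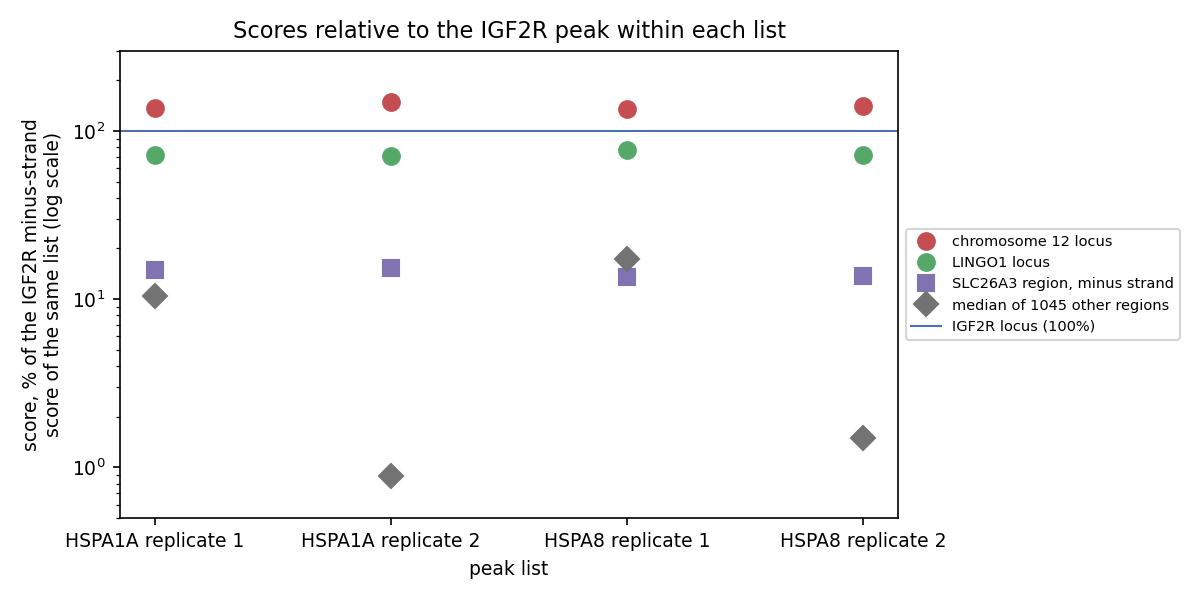
Score as a percentage of the IGF2R minus-strand score of the same list (y axis, log scale) for the chromosome 12 and LINGO1 loci, the SLC26A3 region and the median of 1045 other regions, in the 4 lists (x axis). The 2 loci and SLC26A3 stay level across lists, while the median region drops from 10.5% and 17.3% in the lists numbered 1 to 0.882% and 1.5% in the lists numbered 2.

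The region with the next steadiest ratio lay in SLC26A3, a chloride and bicarbonate exchanger of the gut, on chromosome 7 from 107770197 to 107770272 on the minus strand, which is the strand of the gene (named after its values were seen). Its score was 273, 680, 135 and 294 in the order used above. This was 15%, 15.4%, 13.6% and 13.8% of the IGF2R score. The next was a low-scoring peak in ELAVL2, a neuronal RNA-binding protein, with scores of 19, 53, 11 and 23 and a log2 range of 0.20, on the strand opposite to the gene.

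Likeness was also measured by list position alone, among 355 other genes with a peak in all 4 lists outside the abundant RNA classes. The measure was the mean absolute difference, over the 4 lists, between the position of a gene's best peak and that of IGF2R, each as a percentage of the list. The 5 nearest were RNU1-27P at 0.329 percentage points, LOC105370449 at 0.338, RNU1-28P at 0.484, and LINGO1 and LOC105370906 at 0.716 each. LINGO1 and LOC105370906 share the same peak, and its high score was known when the loci were chosen, so their place here is no finding. RNU1-27P and RNU1-28P are annotated as pseudogenes of U1, the small nuclear RNA that recognises 5′ splice sites, and LOC105370449 overlaps them on chromosome 14. In each list the best peak of LOC105370449 was that of RNU1-27P or of RNU1-28P, so these genes are not separate cases. As pseudogenes, RNU1-27P and RNU1-28P were outside the abundant RNA classes. Their best peaks did not hold one place. In RNU1-27P the best peak ran from 34546721 to 34546816 in HSPA1A replicate 1 and from 34546821 to 34546860 in HSPA1A replicate 2, with no shared base.

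All 3 loci also carried a plus-strand peak, in 3 of the 4 lists, which was rare for a peak in general. A partner on the opposite strand, with an overlap of at least 50% of both peaks, was found for 1.46% (replicate 1) and 1.17% (replicate 2) of all peaks for HSPA1A, and for 1.15% and 0.196% for HSPA8. At IGF2R the plus-strand score was 212 in HSPA1A replicate 1, 1 in HSPA1A replicate 2 and 349 in HSPA8 replicate 1. At LINGO1 it was 167, 1 and 279. At chromosome 12 it was 263, 2 and 436. HSPA8 replicate 2 listed no plus-strand peak at any of the 3 loci. Each plus-strand peak started and ended within 1 bp of its minus-strand partner.

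**Figure D3:**
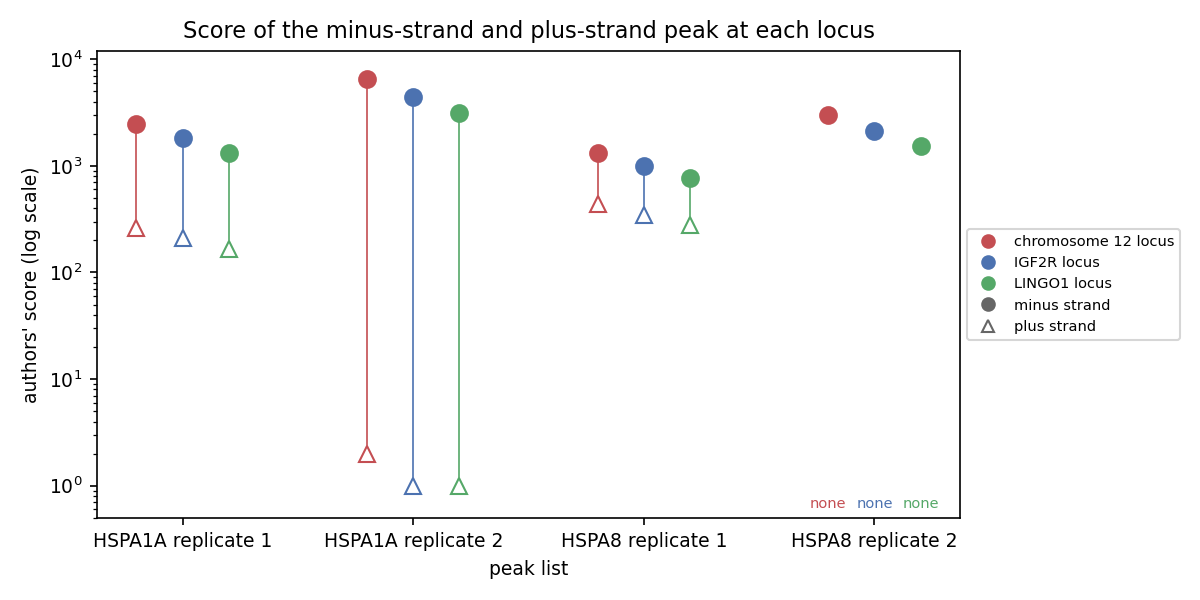
Authors' score (y axis, log scale) of the minus-strand peak (filled circles) and the plus-strand peak (open triangles) at the 3 loci in each of the 4 lists (x axis), with a line joining the strands of a locus. The plus-strand scores lie between 167 and 436 in the lists numbered 1, at 1 or 2 in HSPA1A replicate 2, and no plus-strand peak is listed in HSPA8 replicate 2.

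In each list numbered 1, the plus-strand peak took a similar share of the minus-strand score at the 3 loci. In HSPA1A replicate 1 it was 11.6% of the minus-strand score at IGF2R, 12.7% at LINGO1 and 10.5% at chromosome 12. In HSPA8 replicate 1 the shares were 35.2%, 36.3% and 32.8%, so every locus in this list exceeded every locus of HSPA1A replicate 1. In HSPA1A replicate 2 the shares were 0.0226%, 0.0319% and 0.0305%. These rest on scores of 1, 1 and 2, where the lowest score of that list is 1, and cannot show equal or unequal shares. For HSPA1A the shares ran from 0.0226% to 12.7%, and for HSPA8 only 1 list gave a share, so the baits were not compared.

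Pairs of peaks facing each other on opposite strands numbered 20 in HSPA1A replicate 1, 12 in its replicate 2, 18 for HSPA8 replicate 1 and 2 for its replicate 2. The 3 loci gave 3, 3, 3 and 0 of them. The remaining 17, 9, 15 and 2 pairs reached a highest score of 273, 123, 135 and 74, all below the minus-strand score of each locus. In HSPA1A replicate 1 and HSPA8 replicate 1, 8 and 7 of these other pairs lay on the mitochondrial genome. Only 3 of the other pairs in each of these lists had both edges within 2 bp of the partner's, and 0 did in the lists numbered 2.

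Among the other pairs, the one in SLC26A3 again stood close to the loci. Its plus-strand score was 22.0% of the minus-strand score in HSPA1A replicate 1 and 46.7% in HSPA8 replicate 1, and the lists numbered 2 gave no pair there. A second pair lay in SLBP, which binds the stem-loop of histone mRNAs, on chromosome 4 (named after its values were seen). There the plus strand was the stronger, and the weaker strand had 16.6% of its score in HSPA1A replicate 1 and 47.9% in HSPA8 replicate 1.

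The orientation of these peaks differed between the 3 genes. The high-scoring peak was antisense to IGF2R, on the strand of LINGO1 and antisense to LOC105370906. The weaker plus-strand peaks were on the strand of IGF2R and LOC105370906 and antisense to LINGO1. Over the 4 lists IGF2R carried 8 peaks, 4 on its own strand and 4 antisense. LINGO1 carried 7, of which 4 were on its own strand and 3 antisense, and LOC105370906 carried the same 7 with the orientations exchanged. For reference, of the peaks on protein-coding genes with a known strand and off abundant RNA genes, 69.2% (replicate 1) and 54.8% (replicate 2) for HSPA1A, and 79.0% and 59.2% for HSPA8, lay on the strand of the gene. AIRN, the antisense transcript that starts inside IGF2R, had no peak in any list.

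Few genes held any peak. Of all 20050 protein-coding genes, 4% and 2.33% had at least 1 for HSPA1A and 4.63% and 1.3% for HSPA8, so gene bodies with few peaks were the rule. Besides the pair at the locus, IGF2R held 1 peak, on its own strand in HSPA8 replicate 1 from 160082314 to 160082372, with a score of 5. LINGO1 and LOC105370906 held 0 peaks away from the locus in every list. The IGF2R locus lies 132 kb from the gene start and 10.7 kb before its end. The LINGO1 locus lies 202 kb from the start and 5.54 kb before the end, which is 97.3% of the way along the gene.

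**Figure D4:**
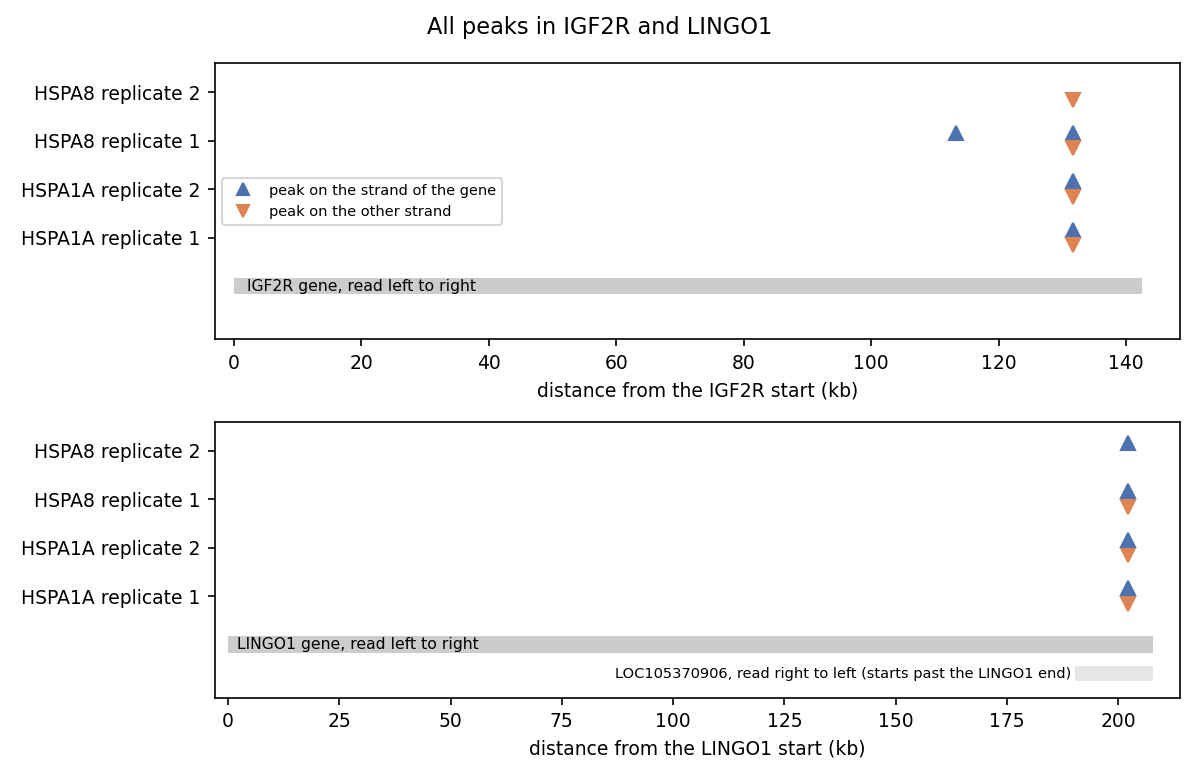
Position of every peak in IGF2R and LINGO1 as distance from the gene start (x axis, kb) in each of the 4 lists (y axis), with upward triangles for peaks on the strand of the gene and downward triangles for the other strand; grey bars show the genes, and LOC105370906 where it overlaps LINGO1. Apart from 1 peak in IGF2R in HSPA8 replicate 1, all peaks fall at the locus, 132 kb into IGF2R and 202 kb into LINGO1.

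The nearest peak outside the IGF2R locus on the chromosome was 2164 kb away in HSPA1A replicate 1, 509 kb in HSPA1A replicate 2, 18.4 kb in HSPA8 replicate 1 and 320 kb in HSPA8 replicate 2. For LINGO1 the distance was 882 kb in 3 lists and 1948 kb in HSPA8 replicate 2. For chromosome 12 it lay between 235 and 3207 kb. None of the loci overlapped a promoter window of the RefSeq tables, so no promoter is described.

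The number of peaks in a gene other than its minus-strand locus peak was compared between baits. IGF2R had 1 and 1 such peaks with HSPA1A as bait, against 2 and 0 with HSPA8, a mean of 1.0 ± 0 against 1.0 ± 1.41 (SD, n = 2 each). LINGO1 had 1 and 1 against 1 and 0, a mean of 1.0 ± 0 against 0.5 ± 0.707 (SD, n = 2 each). The baits overlapped for both genes (two-sided exact permutation of the bait labels, p = 1 for each). With 2 lists per bait this test cannot go below 0.333, so it cannot show a difference or its absence. The labels call the replicates biological but do not name separate cultures, so these p-values measure only the spread between the deposited lists.

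Other genes of the routes in which IGF2R and LINGO1 act were mostly without a peak, as were most protein-coding genes. Of 19 genes linked to IGF2R (its ligands, the related growth factor receptors, the second mannose 6-phosphate receptor, sorting adaptors and lysosomal enzymes), 1 had a peak in HSPA1A replicate 1 and 2 in its replicate 2, and 1 in each list of HSPA8. Of 13 genes linked to LINGO1 (its paralogs and the Nogo receptor complex with its ligands and partners), 1 had a peak in HSPA1A replicate 1 and 0 in the other lists. Of 13 neighbouring genes of the 3 loci, 0 had a peak in any list. These counts are to be read against the shares of all protein-coding genes with a peak, 4% and 2.33% for HSPA1A and 4.63% and 1.3% for HSPA8.

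The genes with a peak were INSR, IGF1R and MYT1L. INSR, the insulin receptor, had a peak on chromosome 19 from 7124541 to 7124588 in HSPA1A replicate 1 with a score of 9, and at nearly the same place in HSPA1A replicate 2 and HSPA8 replicate 2 with scores of 25 and 8. All 3 were antisense to the gene. IGF1R, the receptor of insulin-like growth factor 1, had a peak with a score of 6 in HSPA1A replicate 2 and one with a score of 5 at another place in HSPA8 replicate 1. MYT1L, a neuronal transcription factor, had a peak with a score of 7 in HSPA1A replicate 1. The highest of these scores, 25, compares with 3137 for LINGO1 in the same list.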

How the data were processed

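Peak lists of both replicates of HSPA1A and HSPA8 were analysed. Each deposited list gives position, strand, an inner interval and the authors' whole-number score per peak, called per replicate. Per the labels, random adapter tags were used to merge PCR duplicates. The submitters' processing notes name Trim Galore 0.4.4, FastQC, STAR 2.6.0b, deepTools and GRCh38. The peak caller, its threshold, the treatment of reads matching several places, and depth are not given in the sources used here.

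Positions are 1-based on GRCh38. Genes came from the RefSeq table for GRCh38.p14, in which all 3 members matched, and gene strands from the RefSeq promoter table. Genome sequence was not used here, so no sequence of the loci is printed. Tied scores share a mean rank. Abundant RNA genes were rRNA, snRNA, snoRNA, tRNA, other polymerase III and mitochondrial genes, with annotated pseudogenes of these left out of the class. Ribosomal DNA here is chromosome 21 between 8.2 and 9 Mb.

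Bait labels were permuted exactly over 6 orders. Named genes were the members, related genes whose peaks appear in 2 lists or more, and the 5 genes nearest IGF2R in list position. Others are marked, and MYT1L was named because the count was 1. The members and lists were chosen with earlier results of these data known. Alternatives covered the ranked peaks, ties, score per width, merging, overlap, strand, replicates left out and a replicate block. Python 3.11.15, numpy 2.4.6, pandas 2.3.3 and matplotlib 3.10.9 were used, and the procedures were tested on simulated lists.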

Additional observations from a re-analysis of the deposited data

How the results depend on the processing

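Read depth is unknown and limits every value. Of 162 values under other settings, 21 were called moved, some of them list positions in HSPA1A replicate 1, and 0 reversed. Counts, list positions and ratios have no sign and could not reverse, so this says little about stability. The difference in other peaks in IGF2R, HSPA8 minus HSPA1A, was 0 in the main setting. It was -1 without HSPA8 replicate 1 and 1 without HSPA8 replicate 2. The number of lists with each locus in the top 1%, 2 in the main setting, ranged from 1 to 2 when a list was left out, since HSPA1A replicate 2 and HSPA8 replicate 2 are those lists. It was 3 for IGF2R and chromosome 12, not LINGO1, with score divided by width or without abundant RNA genes, and 3 for chromosome 12 with peaks within 50 bp merged. In HSPA1A replicate 1 the IGF2R peak then stood in the top 0.676% without abundant RNA genes and 0.547% with score divided by width, against 2.15%. In HSPA8 replicate 1, merging peaks within 50 bp took IGF2R from the top 8.97% to 4.51% and chromosome 12 from 7.95% to 3.28%. The mean chromosome 12 to IGF2R ratio was 1.33 with score divided by width, against 1.40. Related genes with a peak fell from 3 to 1 with peaks at or above the median score of their list. The opposite-strand pairs, their settings and the steadiness of ratios were chosen after seeing the data. In HSPA1A replicate 1 the pairs numbered 36 with an overlap of 1 bp and 7 with 90%, in HSPA8 replicate 1, 44 and 8, and the 3 loci kept 3 pairs in each at 90%. The exact tests cannot pass a threshold, so an unchanged call says nothing about stability.

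The labels give same-numbered libraries no shared day or batch, and whether they share one was not tested. Across 1048 regions, the log2 score of replicate 1 minus replicate 2 correlated at 0.851 between the baits, a description over regions that are not independent and the one place where scores of different lists are compared. With the replicate block, the difference in other peaks, HSPA8 minus HSPA1A, was 0 in IGF2R and -0.5 in LINGO1 (exact sign-flip permutation, p = 1 for each, smallest possible 0.5). The block changed no width difference.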
